A study of Arabidopsis thaliana with 15 samples.

Results

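The 80 probe sets described here moved in opposite directions when FAMA and its repressor fusion FAMA-EAR were induced for 48 h in Arabidopsis seedlings. They were selected from 22746 probe sets of the ATH1 array by measured values. The mean of log2(signal + 20) had to differ from the control by at least 0.5 at 48 h for each construct, with opposite signs, which 183 probe sets met. For 135 of these the 3 arrays of each construct did not overlap the 3 control arrays, for 84 of them the 4 h difference between FAMA and control was also under 0.38, and for 82 the highest group mean was at least 100. The rule then left out plastid-encoded genes as a class, which removed petL, and AT1G47400 by name. EXPA16 and BHLH101, which the rule also names, were not among the 82. Of the 80 members, 54 were higher with FAMA and lower with FAMA-EAR, and 26 were lower with FAMA and higher with FAMA-EAR.

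The tissue was whole seedlings of ecotype Columbia, grown on vertical MS and sucrose plates in continuous light at 22 °C. FAMA seedlings carried an estrogen-inducible FAMA cassette and were kept on 10 µM estrogen for 48 h (age 7 days) or 4 h (age 5 days). FAMA-EAR seedlings expressed FAMA joined to the EAR repression domain and were kept on 10 µM estrogen for 48 h (age 7 days). Control seedlings were moved to fresh plates without estrogen for 48 h (age 7 days) or 4 h (age 5 days). Each of the 5 groups had 3 arrays. The labels do not say which promoter drove the estrogen receptor, whether the controls carried a cassette, or how many lines each construct stands for. Estrogen and construct cannot be told apart in a comparison with a control, and no FAMA-EAR array was made at 4 h.

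FAMA belongs to the basic helix-loop-helix transcription factors; it stops division of the guard mother cell lineage and starts guard cell differentiation. The EAR motif is a short peptide that recruits co-repressors, and adding it to a transcription factor is a common way to make that factor repress the genes it binds. The array reads steady-state transcript from the whole seedling, so more or fewer cells of a type and more or less RNA per cell cannot be told apart.

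The probe set of FAMA (AT3G24140, TAIR10.1 chromosome 3, 8715118 to 8718211) had signals of 18576.3, 16934.1 and 18562.6 in FAMA 48 h seedlings, 3456.5, 2726 and 2998.5 in FAMA-EAR 48 h seedlings and 255, 245.9 and 229.6 in control 48 h seedlings. Every induced array was above every control array, and the FAMA-EAR transcript was less abundant than the FAMA transcript. Median signals per array lay between 188.2 and 199, except on the third FAMA 4 h array with 239.5. No array was identical to another. Shoot and root were both present in the tissue: RCA, the Rubisco activase, averaged 17015 ± 412, 21903 ± 2220 and 24285 ± 2151, and PYK10, a root beta-glucosidase, averaged 12349 ± 1202, 18255 ± 1545 and 19756 ± 1489 in FAMA 48 h, FAMA-EAR 48 h and control 48 h seedlings (SD, n = 3 each).

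The 54 members higher with FAMA had a median log2 difference from the 48 h control of 0.86 with FAMA, ranging between 0.50 and 5.04, and of -0.75 with FAMA-EAR, ranging between -1.78 and -0.51. In the 26 members lower with FAMA the medians were -0.71 with FAMA (-2.63 to -0.52) and 0.67 with FAMA-EAR (0.51 to 1.49). These values chose the members, so they are a description with no test. Between the FAMA and FAMA-EAR seedlings the members differed by 1.03 to 5.80 log2 units with a median of 1.60, or 3.04-fold, and 23 of the 80 differed at least 4-fold. Both comparisons use the same 3 control arrays.

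**Figure D1:**
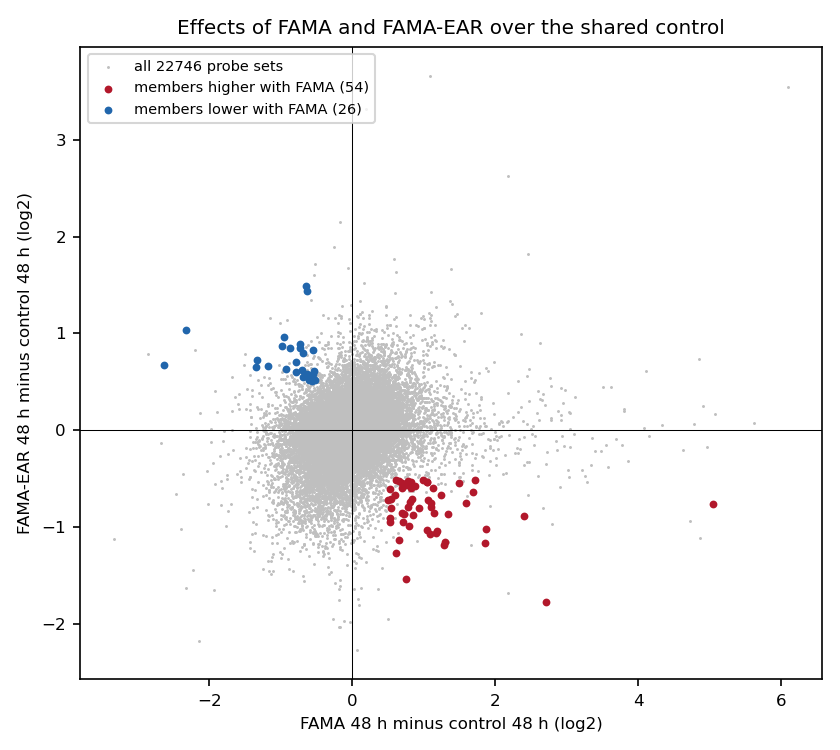
Each point is a probe set, with its log2 difference between FAMA 48 h and control 48 h on the x axis and between FAMA-EAR 48 h and control 48 h on the y axis, and members in colour. The 54 members higher with FAMA fill the lower right and the 26 lower with FAMA the upper left, because the rule selected them there, with 1 point near 5.04 on the x axis far from the rest.

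Across the arrays, the median log2(signal + 20) of the 54 members was 8.72 to 8.87 in FAMA 48 h seedlings, 6.86 to 6.96 in FAMA-EAR 48 h seedlings and 7.71 to 7.78 in control 48 h seedlings. At 4 h it was 8.07 to 8.26 with FAMA and 7.95 to 8.19 in the controls. The medians of the 26 members lower with FAMA were 7.24 to 7.56, 9.03 to 9.13 and 8.03 to 8.33 in FAMA, FAMA-EAR and control seedlings at 48 h, and 8.20 to 8.28 and 8.07 to 8.19 in FAMA and control seedlings at 4 h. The 4 h limit of the rule holds the 4 h groups close to each other.

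The rule set the order of the 48 h groups and kept the arrays of each construct apart from the 48 h controls. Only where the 4 h groups lie relative to them was free in the counts that follow. These counts are a description, and the same counts over all probe sets were not made. FAMA 48 h was the highest of the 5 groups for 41 of the 54 members, and in 25 of them all 3 FAMA 48 h arrays were above the other 12 arrays. FAMA-EAR 48 h was the lowest group for 53 of the 54, and its 3 arrays were below the other 12 in 44. Among the 26 members lower with FAMA, FAMA 48 h was the lowest group for 24, with no overlap with the other 12 arrays in 17, and FAMA-EAR 48 h was the highest group for 24, with no overlap in 21.

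**Figure D2:**
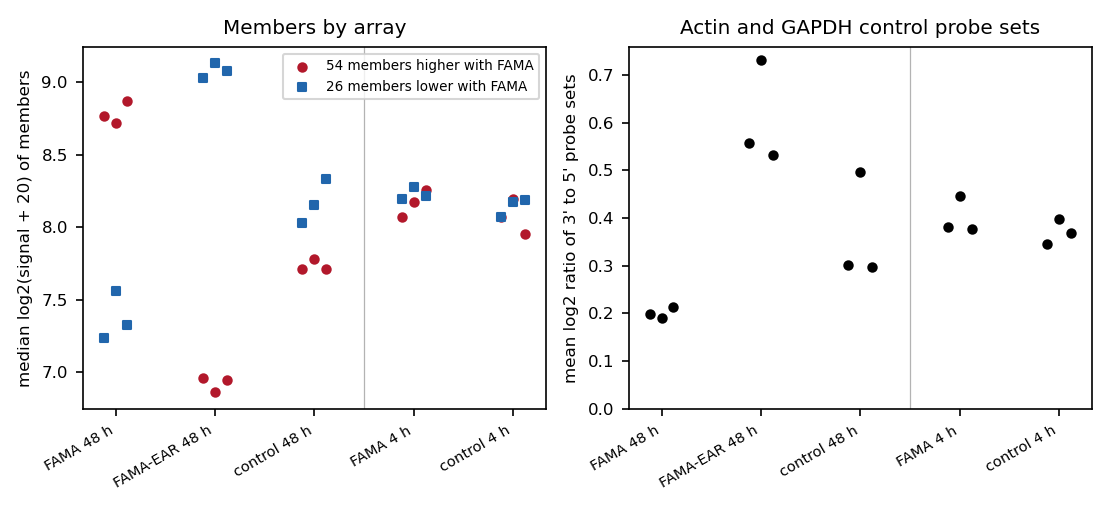
Left, the median log2(signal + 20) of the 54 members higher with FAMA (circles) and the 26 lower with FAMA (squares) on each array, by group. Right, the log2 ratio of the 3' over the 5' control probe sets, averaged over actin and GAPDH, on the same arrays, which is 0.191 to 0.214 in FAMA 48 h, 0.533 to 0.731 in FAMA-EAR 48 h and 0.297 to 0.495 in control 48 h seedlings.

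A sign of RNA integrity differed between the 48 h groups. The log2 ratio of 3' over 5' probe sets, averaged over actin and GAPDH, which rises as RNA is degraded or copied in part, was 0.199, 0.191 and 0.214 on the FAMA 48 h arrays, 0.558, 0.731 and 0.533 on the FAMA-EAR 48 h arrays and 0.301, 0.495 and 0.297 on the control 48 h arrays. The 3 groups did not overlap, in the order FAMA, control, FAMA-EAR, which is also the order of the members at 48 h. Actin alone kept this order, at 0.509 to 0.578, 0.819 to 0.957 and 1.08 to 1.16. With GAPDH alone the groups overlapped, at -0.150 to -0.123, -0.363 to 0.035 and -0.045 to 0.317. The 4 h ratios, 0.345 to 0.447, lay inside the range of the 48 h controls. The 4 h medians of the 54 members, 7.95 to 8.26, lay above those of the 48 h controls. A second set of actin and GAPDH control probe sets on the same arrays gave 1.22 to 1.54, 1.93 to 2.07 and 0.91 to 1.57, so FAMA-EAR was again above the others while FAMA and control overlapped. Among the controls, the array with the ratio of 0.495 had the highest median of the 54 members, 7.78 against 7.71 on the other two. Among the FAMA-EAR arrays, the one with 0.731 had the lowest median of the 54, 6.86, and the highest of the 26, 9.13. The part of this ratio in the opposite responses was not tested.

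Of the 80 members, 33 had a gene name through a probe set of 1 gene, 19 among those higher with FAMA and 14 among those lower. A further 2 probe sets named several genes, and 45 had no name in the annotation used here and are given by probe set. The named members are taken first, by role.

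**Figure D3:**
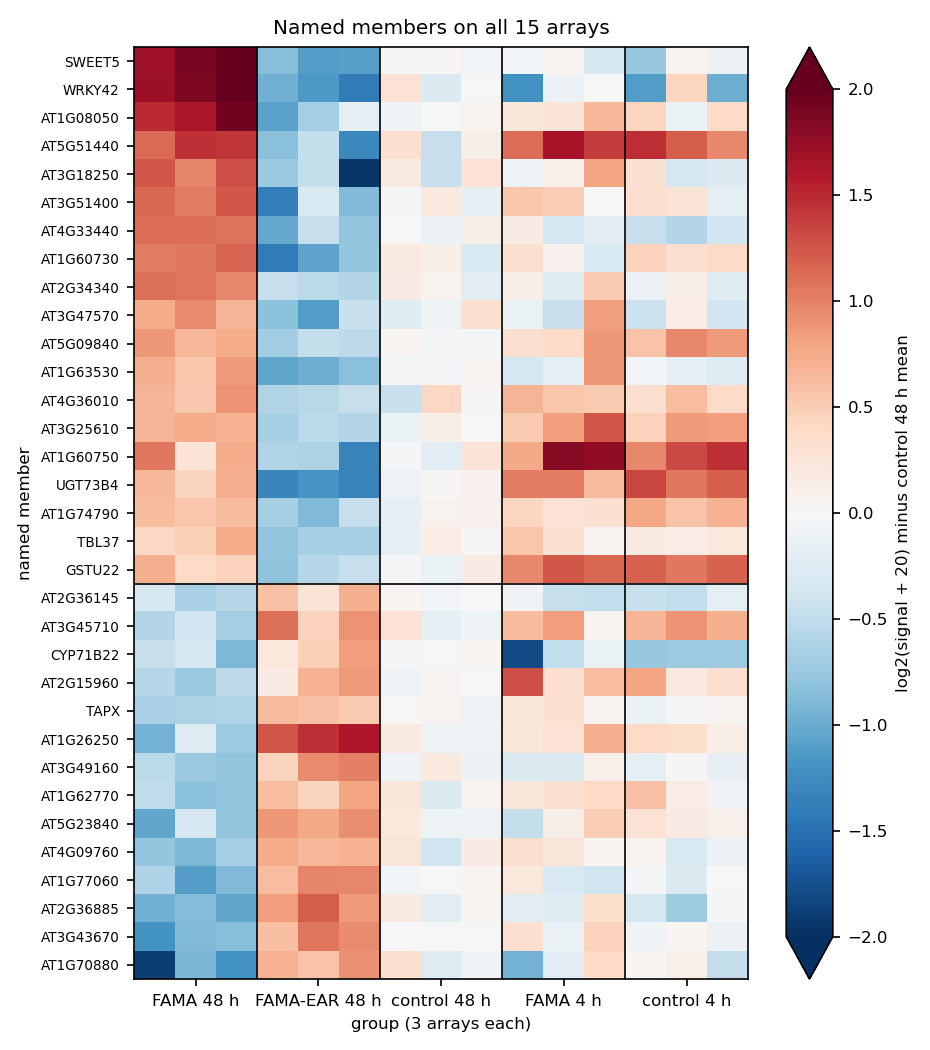
Log2(signal + 20) of the 33 named members (rows) on 15 arrays (columns, 3 per group), as the difference from the mean of the control 48 h arrays, with colours ending at -2 and 2. The upper 19 rows are red in FAMA 48 h and blue in FAMA-EAR 48 h and the lower 14 rows are the reverse, as the rule requires, while the 4 h columns vary from row to row.

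Among regulators and transporters higher with FAMA, WRKY42 (AT4G04450, chromosome 4, 2218042 to 2221260), a WRKY transcription factor of phosphate homeostasis, had signals of 186.7, 212 and 233 in FAMA 48 h seedlings, 12.6, 8.7 and 3.9 in FAMA-EAR 48 h seedlings and 57.4, 32.3 and 42.6 in control 48 h seedlings. At 4 h they were 7.3, 38.1 and 43.3 with FAMA and 9.3, 64.8 and 12.1 in the controls. All FAMA 48 h arrays were thus far above the other 12, and the remaining signals were near background, where the size of a log2 difference (1.86 with FAMA, -1.17 with FAMA-EAR) depends on the offset of 20. SWEET5 (AtVEX1, AT5G62850, chromosome 5, 25229938 to 25231844), a member of the SWEET sugar transporters first described in the vegetative cell of pollen, had signals of 223.8, 260.7 and 286.1 in FAMA 48 h seedlings, 21.7, 14.6 and 15.5 in FAMA-EAR 48 h seedlings and 56.9, 56.5 and 52.7 in control 48 h seedlings. At 4 h the signals were 52.7, 58.2 and 40.6 with FAMA and 24.5, 59.2 and 49.8 in the controls, overlapping each other. The log2 difference from the 48 h control was 1.87 with FAMA and -1.02 with FAMA-EAR.

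Closely spaced genes for aldo-keto reductases, enzymes that reduce reactive carbonyls, were both members: AT1G60730 (chromosome 1, 22357976 to 22360277) and AT1G60750 (22362293 to 22363854), with 2016 bases between them. AT1G60730 had signals of 584.4, 594.1 and 638.9 in FAMA 48 h seedlings, 91.8, 121.3 and 153.5 in FAMA-EAR 48 h seedlings and 315.7, 298.8 and 219.9 in control 48 h seedlings. Seedlings at 4 h had 348.6, 293.5 and 217.9 with FAMA and 386, 347.6 and 364.7 in the controls. FAMA 48 h was here above, and FAMA-EAR 48 h below, all other arrays. AT1G60750 had signals of 160.8, 85.7 and 125.5 in FAMA 48 h seedlings, 37.1, 36.2 and 14.6 in FAMA-EAR 48 h seedlings and 64.9, 54.9 and 83.7 in control 48 h seedlings. At 4 h it was at 126.7, 285.8 and 278.3 with FAMA and at 149.4, 196.2 and 219.4 in the controls. For this gene the 4 h groups, not FAMA 48 h, were the highest.

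GSTU22 (AT1G78340, chromosome 1, 29472845 to 29474003) is a tau class glutathione transferase, an enzyme that couples glutathione to toxic compounds. Its signals were 1664.5, 1326.8 and 1379.3 in FAMA 48 h seedlings, 565.5, 668.3 and 716.5 in FAMA-EAR 48 h seedlings and 970.9, 911.5 and 1124.1 in control 48 h seedlings. It reached 1962.9, 2378.6 and 2240.5 with FAMA at 4 h and 2294.6, 2101.1 and 2298.9 in the 4 h controls, above every 48 h array. UGT73B4 (AT2G15490, chromosome 2, 6761635 to 6763500), a glycosyltransferase of stress and pathogen responses, showed the same order of groups, with 462.8, 396.1 and 483.4 in FAMA 48 h seedlings, 103.3, 115.4 and 102.4 in FAMA-EAR 48 h seedlings and 264.1, 289.1 and 304.1 in control 48 h seedlings. Its 4 h signals were 598.6, 609.7 and 455.5 with FAMA and 750, 613.2 and 678 in the controls. AT5G51440 (chromosome 5, 20891163 to 20892416), a small heat shock protein of the HSP20 family, had signals of 254.9, 324.5 and 317.4 in FAMA 48 h seedlings, 49.9, 69.3 and 31.2 in FAMA-EAR 48 h seedlings and 138, 70.7 and 116 in control 48 h seedlings. At 4 h they were 250.4, 370.2 and 310.6 with FAMA and 327.1, 268.2 and 223.8 in the controls, which overlap FAMA 48 h.

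**Figure D4:**
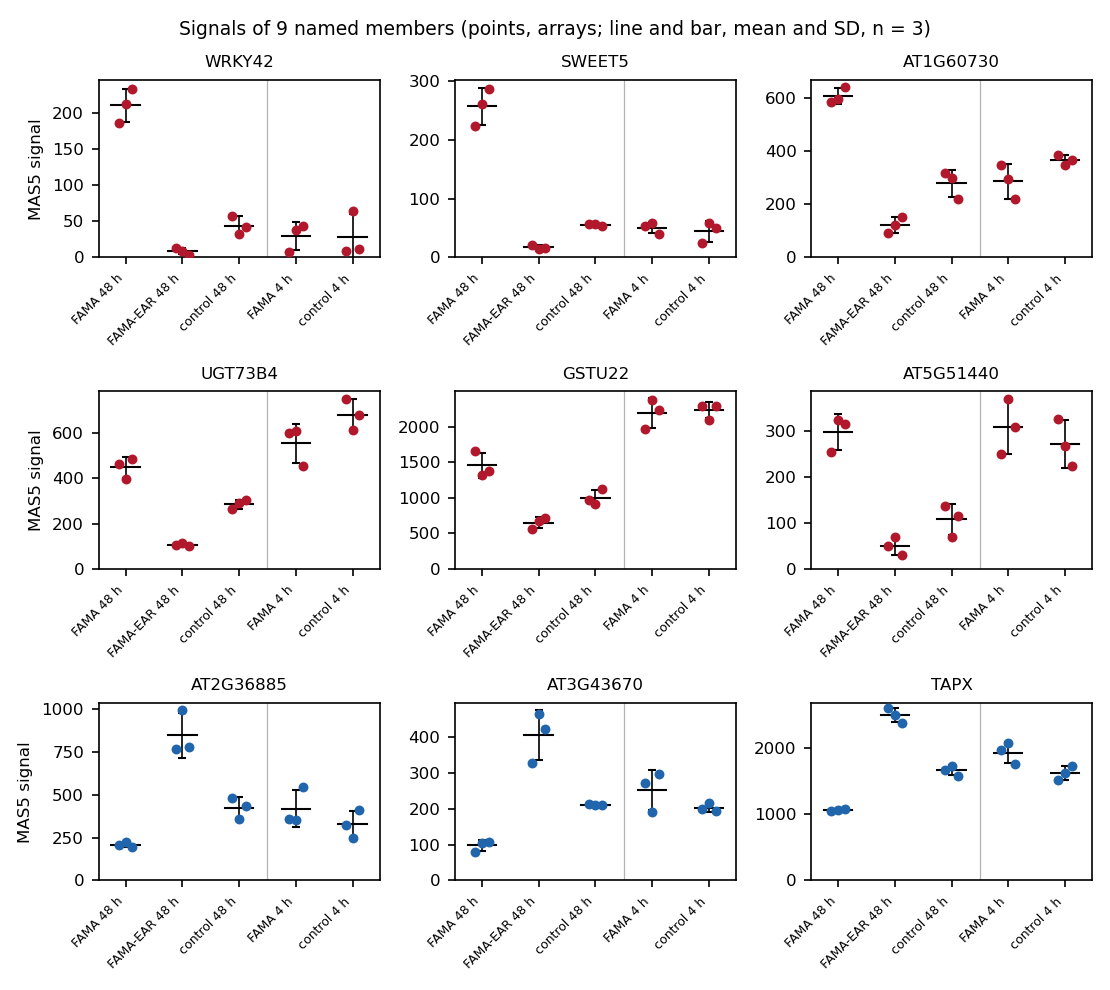
MAS5 signals of 9 named members in the 5 groups, with 3 arrays as points and the mean and SD as line and bar. FAMA 48 h stands above all groups for WRKY42, SWEET5 and AT1G60730, whereas both 4 h means are above it for UGT73B4 and GSTU22, and the 4 h arrays overlap it for AT5G51440; AT2G36885, AT3G43670 and TAPX are highest in FAMA-EAR 48 h.

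The named members of cell wall and membrane were AT4G33440, of the pectin lyase-like family, TBL37, of the TRICHOME BIREFRINGENCE-LIKE family that includes wall polysaccharide acetyltransferases, and AT3G25610 (ALA10), a phospholipid flippase. AT4G33440 averaged 627.5 ± 7.12 in FAMA 48 h, 160.7 ± 35.6 in FAMA-EAR 48 h and 281.1 ± 23.6 in control 48 h seedlings (SD, n = 3 each). TBL37 averaged 1150 ± 145, 467.5 ± 23.2 and 778.7 ± 85.3 in these groups (SD, n = 3 each). AT3G25610 averaged 282.4 ± 7.64, 103.4 ± 5.31 and 166.5 ± 16.4, and its 4 h means of 326.5 ± 87.1 with FAMA and 286.9 ± 44.7 in the controls (SD, n = 3 each) were no lower than FAMA 48 h. Signalling and turnover were represented by AT3G47570, a leucine-rich repeat receptor-like kinase, AT1G08050, a RING-type zinc finger protein, AT4G36010, of the thaumatin family of pathogenesis-related proteins, and AT2G34340, of a senescence regulator family. Of these, AT1G08050 had the largest rise with FAMA, to 364.3, 404.9 and 504.2 in FAMA 48 h seedlings, with 45.5, 65.8 and 101.2 in FAMA-EAR 48 h seedlings and 109, 117.9 and 124.3 in control 48 h seedlings. The other 3 had log2 differences of 0.70 to 1.04 with FAMA and -0.79 to -0.53 with FAMA-EAR.

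The remaining named members higher with FAMA were AT3G18250, AT3G51400, AT1G63530, AT1G74790 and AT5G09840. AT3G18250 (chromosome 3, 6258060 to 6258426) had signals of 311.9, 256.2 and 322.9 in FAMA 48 h seedlings, 63.3, 80 and 16.3 in FAMA-EAR 48 h seedlings and 138.2, 81 and 150.6 in control 48 h seedlings. The FAMA-EAR and control arrays lay close to each other here, at 80 and 81 for the nearest pair. Its 4 h signals were 109.5, 129.5 and 220.4 with FAMA and 151.7, 90.3 and 96.2 in the controls. In the other 4 the log2 difference was 0.61 to 1.14 with FAMA and -0.95 to -0.57 with FAMA-EAR.

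The 2 probe sets that name several genes were both higher with FAMA. The probe set 265228_s_at, which matches the mitochondrial ATP synthase gene atp1 and the nuclear copy AT2G07698, had 442.1, 604.3 and 430.1 in FAMA 48 h seedlings, 113.5, 141.4 and 123.7 in FAMA-EAR 48 h seedlings and 287.2, 340.2 and 277.6 in control 48 h seedlings. The probe set 244944_s_at, which is annotated with the ribosomal protein genes rps3 and rpl16 together, had 360.5, 438.6 and 430.6 with FAMA, 93.5, 82.9 and 112.3 with FAMA-EAR and 196.2, 192.2 and 154.2 in the controls at 48 h. The groups did not overlap in either case. Transcripts of several genes can bind each of these probe sets, so which gene moved cannot be told apart. The genome that holds the rps3 and rpl16 copies read by 244944_s_at could not be looked up in the annotation used here, and it would not be a member if they are the plastid ones.

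Among the unnamed probe sets higher with FAMA, 251706_at had the largest rise, with 3756.8, 4326.5 and 4983.7 in FAMA 48 h seedlings, 29.1, 66 and 93.3 in FAMA-EAR 48 h seedlings and 100.8, 109.3 and 128.1 in control 48 h seedlings. After 4 h it had 106.3, 100 and 28.7 with FAMA and 80.5, 97 and 90.9 in the controls, so it was high in 1 group of the 5. By the smaller of its 2 differences 251677_at led the class, with 2319, 1948.8 and 1991.1 in FAMA 48 h seedlings, 143.9, 40.7 and 61.4 in FAMA-EAR 48 h seedlings and 254.2, 310.4 and 340.4 in control 48 h seedlings. At 4 h it had 263, 426.8 and 353.1 with FAMA and 387, 393 and 573.2 in the controls. The log2 differences from the 48 h control were 2.72 with FAMA and -1.78 with FAMA-EAR.

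Another pattern among the unnamed was a level in FAMA 48 h seedlings like that at 4 h. The probe set 263231_at had 1347.8, 962.8 and 1217.3 in FAMA 48 h seedlings, 103.2, 96.1 and 104.6 in FAMA-EAR 48 h seedlings and 171, 222.5 and 223.9 in control 48 h seedlings. In the 4 h groups it had 912.5, 1009.3 and 965 with FAMA and 1046.9, 827.9 and 1031.9 in the controls. The FAMA 48 h arrays therefore overlapped both 4 h groups, and the 48 h controls stood far below. For 262518_at the values were 3426.1, 2815.8 and 3742.1 in FAMA 48 h seedlings, 484.6, 579.5 and 722.1 in FAMA-EAR 48 h seedlings and 1395.1, 1125.2 and 1505.2 in control 48 h seedlings. The 4 h values were 2774.9, 3123.4 and 2765.7 with FAMA and 3531.7, 2873.8 and 2960.5 in the controls. Again FAMA 48 h overlapped the 4 h arrays.

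In 249494_at, 253416_at, 250670_at and 253046_at the 48 h controls also lay below both 4 h means, but the highest mean was in the 4 h controls for all of these except 253416_at. For 249494_at the signals were 844.2, 900.1 and 1148.7 in FAMA 48 h, 240.3, 178.1 and 221.8 in FAMA-EAR 48 h and 385.3, 486.8 and 498.3 in control 48 h seedlings, and 1020, 955.4 and 946.3 with FAMA and 1174, 1071.1 and 1238.2 in the controls at 4 h. For 253416_at they were 448.4, 377.7 and 466.5 in FAMA 48 h, 88.3, 29.1 and 82.1 in FAMA-EAR 48 h and 129.4, 194.5 and 178.1 in control 48 h seedlings, and 197.2, 356.8 and 464.8 with FAMA and 365.8, 374.4 and 409.4 in the controls at 4 h. In each the 48 h controls were below all 4 h arrays. For 250670_at they were 2079.6, 2244.4 and 2473.8 in FAMA 48 h, 724.1, 609.8 and 917.5 in FAMA-EAR 48 h and 1477.9, 1166 and 1461.7 in control 48 h seedlings, and 2579.3, 2578.8 and 2266.5 with FAMA and 3303, 2579.5 and 3264.1 in the controls at 4 h. For 253046_at they were 215.2, 240.7 and 254.4 in FAMA 48 h, 44.5, 58 and 61.3 in FAMA-EAR 48 h and 114.1, 101.1 and 93.3 in control 48 h seedlings, and 177.2, 206.1 and 208.7 with FAMA and 191.9, 356.5 and 204 in the controls at 4 h. The probe set 267168_at was intermediate, at 551.7, 541.7 and 622.3 in FAMA 48 h, 105.2, 102.5 and 110.4 in FAMA-EAR 48 h and 209.9, 244 and 266.1 in control 48 h seedlings, and at 383.1, 224.7 and 260 with FAMA and 367.1, 355 and 387.1 in the controls at 4 h.

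Of the 26 members lower with FAMA, 14 had a name. AT3G43670 (chromosome 3, 15567067 to 15569984), a copper amine oxidase, had signals of 80.6, 105.5 and 107.5 in FAMA 48 h seedlings, 328.9, 465.7 and 422.8 in FAMA-EAR 48 h seedlings and 212.5, 209.4 and 209.4 in control 48 h seedlings. Its 4 h signals were 271.3, 190.2 and 298 with FAMA and 200.6, 216.4 and 192.8 in the controls, between the extremes of the 48 h groups. AT2G36885 (chromosome 2, 15482003 to 15483788) had 205.9, 222.3 and 195.4 in FAMA 48 h seedlings, 766.4, 995.9 and 776.5 in FAMA-EAR 48 h seedlings and 478.8, 356.2 and 435.2 in control 48 h seedlings, and 361.2, 354.3 and 543 with FAMA and 326, 248.8 and 408.3 in the controls at 4 h. It lay near equal distances on both sides of the control, with log2 differences of -0.95 with FAMA and 0.97 with FAMA-EAR.

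AT1G77060 (chromosome 1, 28951643 to 28953580), of the isocitrate lyase and phosphoenolpyruvate mutase superfamily, had signals of 320.1, 225.1 and 263.1 in FAMA 48 h seedlings, 784.5, 1010.3 and 1000.5 in FAMA-EAR 48 h seedlings and 484.6, 505.9 and 519.9 in control 48 h seedlings. At 4 h they were 582.7, 403 and 374.9 with FAMA and 493.3, 411.1 and 504.5 in the controls. Both 48 h effects were of like size, -0.87 and 0.85. AT3G49160 (chromosome 3, 18221794 to 18224905), of the pyruvate kinase family, had 64, 52.8 and 50 in FAMA 48 h seedlings, 146.1, 213.5 and 223.4 in FAMA-EAR 48 h seedlings and 94.8, 118.9 and 92.3 in control 48 h seedlings, and 79.4, 80.4 and 110.7 with FAMA and 85.7, 102.9 and 88.4 in the controls at 4 h. AT4G09760 (chromosome 4, 6148758 to 6151399), of the choline kinase family that acts in phospholipid synthesis, had 216.7, 198 and 237.4 in FAMA 48 h seedlings, 658.7, 625.6 and 637.9 in FAMA-EAR 48 h seedlings and 458.5, 288.1 and 435.4 in control 48 h seedlings, and 486.1, 460 and 396.1 with FAMA and 407, 308.4 and 355.1 in the controls at 4 h. The groups did not overlap at 48 h, and the 4 h groups overlapped each other.

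Lipid-related proteins gave AT1G70880 (chromosome 1, 26722846 to 26723978), of the polyketide cyclase and lipid transport superfamily, and AT5G23840 (chromosome 5, 8035690 to 8037110), of the MD-2-related lipid recognition family. AT1G70880 had 7.9, 34.5 and 24.4 in FAMA 48 h seedlings, 145.6, 132.6 and 174.3 in FAMA-EAR 48 h seedlings and 108.7, 65.5 and 78.1 in control 48 h seedlings, and 33.3, 67.4 and 115.7 with FAMA and 85.7, 90.2 and 53.5 in the controls at 4 h. AT5G23840 had 64.8, 118 and 80.3 in FAMA 48 h seedlings, 298.7, 275.4 and 310.6 in FAMA-EAR 48 h seedlings and 181.1, 141.8 and 142 in control 48 h seedlings, and 104.6, 169.7 and 224.3 with FAMA and 192.5, 175.5 and 166.2 in the controls at 4 h. All 3 FAMA 48 h arrays of AT1G70880 were near background.

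TAPX (AT1G77490, chromosome 1, 29117500 to 29121093), the thylakoid ascorbate peroxidase that removes hydrogen peroxide in the chloroplast, averaged 1068 ± 18.3 in FAMA 48 h, 2502 ± 108 in FAMA-EAR 48 h and 1668 ± 75.7 in control 48 h seedlings (SD, n = 3 each). Its 4 h means were 1937 ± 164 with FAMA and 1626 ± 103 in the controls (SD, n = 3 each). Cell wall members were AT1G26250, a proline-rich extensin-like gene with means of 31.4 ± 13, 193.8 ± 28.1 and 58.5 ± 8.43 in FAMA, FAMA-EAR and control 48 h seedlings, and AT1G62770, a pectin methylesterase inhibitor family gene with 71.2 ± 11.1, 206.7 ± 27.5 and 128.7 ± 26.5 (SD, n = 3 each). AT1G26250 had the larger effect on the FAMA-EAR side, 1.44 against -0.64. AT3G45710, a transporter of the NRT1/PTR family, averaged 108.9 ± 14, 317.5 ± 73.2 and 169.3 ± 34.8 in these groups (SD, n = 3 each). The cytochrome P450 gene CYP71B22 and the genes AT2G15960 and AT2G36145 completed the named members, with log2 differences of -0.61 to -0.52 with FAMA and 0.51 to 0.57 with FAMA-EAR.

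The largest falls with FAMA in this class were in unnamed probe sets. For 248377_at the signals were 148.1, 181.9 and 161.6 in FAMA 48 h seedlings, 1805.1, 2132 and 1471.7 in FAMA-EAR 48 h seedlings and 1162.7, 1251.7 and 942 in control 48 h seedlings, a log2 difference of -2.63 with FAMA. At 4 h it had 699.7, 532.3 and 583.1 with FAMA and 554.1, 613 and 427.3 in the controls, so FAMA 48 h was also below the 4 h arrays. For 263549_at they were 11, 23 and 10.2 in FAMA 48 h seedlings, 303.1, 310.5 and 382.3 in FAMA-EAR 48 h seedlings and 134.3, 149.7 and 170.8 in control 48 h seedlings. Its 4 h signals of 48.2, 19 and 40.4 with FAMA and 50.7, 26.3 and 32.1 in the controls were near background, as was FAMA 48 h. The probe set 252965_at had 375.2, 268.7 and 325.3 in FAMA 48 h, 989.8, 1082.7 and 1006.5 in FAMA-EAR 48 h and 594, 488.9 and 559 in control 48 h seedlings, and 694.1, 795.9 and 444.6 with FAMA and 428.9, 565 and 468.5 in the controls at 4 h. The other 9 unnamed members lower with FAMA had log2 differences of -1.35 to -0.54 with FAMA.

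Uninduced seedlings at day 7 (control 48 h) were compared with those at day 5 (control 4 h), which asks how the members changed on plates without estrogen. Age and time since the move to fresh plates differ together here and cannot be told apart. The rule did not use this difference, but it used the arrays of both groups: the 48 h controls set both effects and the separation of arrays, and the 4 h controls set the 4 h limit. The calls and p-values of members, here and below, are therefore not independent of how the members were chosen. They and the counts are a description. Of the 54 members higher with FAMA, 18 (33.3%) were lower and 0 higher at 48 h in limma, against 3.81% lower and 3.37% higher over the 22746 probe sets tested. At an unadjusted p under 0.05, 27 (50%) were lower and 3 (5.56%) higher, against 8.64% and 9.3% of all probe sets. The difference was negative in 37 of the 54 (68.5%), against 45.6% of all probe sets, with a median of -0.33 against 0.03. Over all probe sets the number higher, 767, was 497, 510 and 460 without 4 h control 2, 4 h control 3 and 48 h control 2. Among the 54, the number called lower was 13 to 18 when 1 control array was left out, and 0 were called higher in each of these fits. Of the 26 members lower with FAMA, 4 (15.4%) were higher and 2 (7.69%) lower, with a median of 0.11. The lower calls were AT3G45710 and 260221_at. Leaving out 4 h control 1 or 3, or 48 h control 2 or 3, ended both calls, and leaving out 4 h control 2 ended that of AT3G45710.

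**Figure D5:**
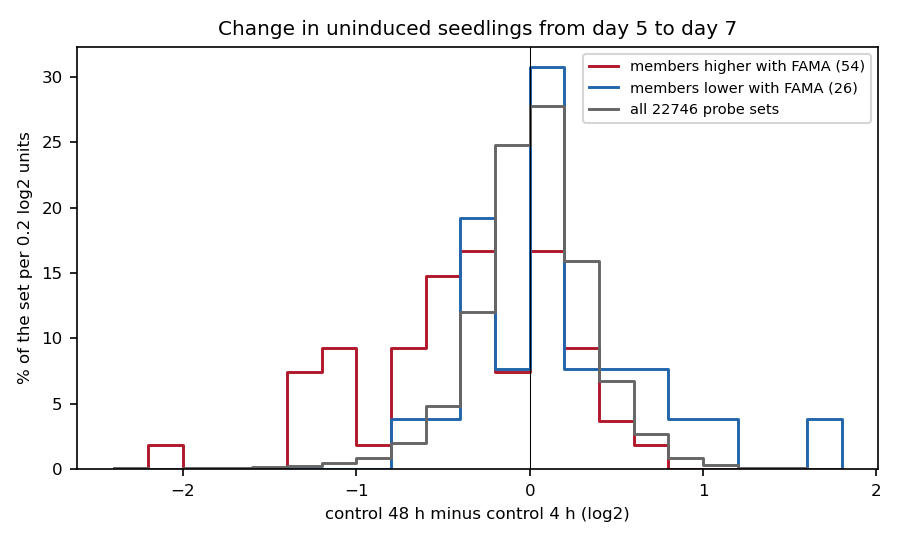
Share of each set per 0.2 log2 units of the difference between uninduced seedlings at 48 h and at 4 h, for the 54 members higher with FAMA, the 26 lower with FAMA and all probe sets, with values beyond the axis counted in the end bins. The members higher with FAMA are shifted to the left, with a median of -0.33 against 0.03 for all probe sets. Their lowest value was -2.13, and the lowest of all probe sets was -4.28.

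GSTU22 fell by 1.14 in control seedlings (SE 0.109, adjusted p = 8.73e-07, limma) and UGT73B4 fell by 1.19 (SE 0.134, adjusted p = 5.78e-06, limma). AT1G60750 fell by 1.24 (SE 0.296, adjusted p = 0.011, limma), a call that ended without the third 4 h control or the second 48 h control. AT5G51440 fell by 1.22 (SE 0.234, adjusted p = 0.00204, limma), while AT1G60730, close to AT1G60750, had a value of -0.39 (SE 0.177, adjusted p = 0.247, limma). Of the other named members, AT1G74790 fell by 0.68 (SE 0.104, adjusted p = 0.000201, limma). The falls of AT3G25610 (0.71) and AT5G09840 (0.79) had adjusted p = 0.0138 and 0.0297 (limma) and ended without 4 h control 2 or 3 or 48 h control 1, and for AT5G09840 also without 48 h control 2 or 3.

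Unnamed members had the largest change: 263231_at fell by 2.13 (SE 0.133, adjusted p = 3.21e-09, limma) and 249494_at fell by 1.31 (SE 0.129, adjusted p = 1.17e-06, limma). The probe sets 262518_at, 250670_at, 253416_at and 253046_at fell by 1.21, 1.14, 1.12 and 1.09 (adjusted p = 4.33e-06, 6.17e-06, 0.0121 and 0.00196, limma), and the call of 253416_at ended without the third 4 h control or the first 48 h control. The fall of 267168_at (0.59, adjusted p = 0.0264, limma) ended when any control array other than 48 h control 3 was left out. In all, 10 of the 18 fell at least 2-fold, against 190 of the 866 called lower among all 22746 probe sets. In the class lower with FAMA, 263549_at rose by 1.62 (SE 0.271, adjusted p = 0.000513, limma) and 248377_at by 1.05 (SE 0.15, adjusted p = 9.04e-05, limma). The other calls there were higher for 251109_at (0.77) and 264920_at (0.59).

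The named members were spread over the genome, with 11, 6, 8, 4 and 4 on chromosomes 1 to 5, where 25.8%, 16.5%, 20.5%, 14.7% and 22.5% of the named probe sets on these chromosomes lie. Apart from AT1G60730 and AT1G60750, no pair of named members lay within 50000 bases. None of the 33 has another probe set with its name.

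Families with a member were looked up after the members were known. Of the 22746 probe sets, limma called 10.6% higher and 11% lower with FAMA at 48 h; with FAMA-EAR it called 1.39% higher and 1.81% lower. The FAMA-EAR calls, 729 in all, were 399 and 387 without 48 h control 2 and 3, and 473, 358 and 451 without FAMA-EAR array 1, 2 and 3. Of 7 UGT73 genes with a named probe set, 1 was called higher and 1 lower with FAMA, 3 were lower with FAMA-EAR, and 3 were lower in uninduced seedlings; UGT73B5 had 0.41 with FAMA and -0.79 with FAMA-EAR, just short of the rule. Of 11 tau glutathione transferases, 2 were higher and 2 lower with FAMA, and 1 was higher and 2 lower with FAMA-EAR. In uninduced seedlings 2 of the 11 were higher and 2 lower. GSTU25, which had 0.22 with FAMA, -1.01 with FAMA-EAR and -1.35 in uninduced seedlings, was no member. Of 15 SWEET genes 1 was higher and 6 lower with FAMA, and SWEET5 was the 1 that was higher.

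Among 6 WRKY genes with a named probe set, 2 were higher and 2 lower with FAMA and 1 was lower with FAMA-EAR. WRKY6, which like WRKY42 acts in phosphate homeostasis, averaged 659.1, 151.8 and 221.2 in FAMA 48 h, FAMA-EAR 48 h and control 48 h seedlings, and its difference of -0.48 with FAMA-EAR was just short of the rule. Of 22 TBL genes, 4 were higher and 2 lower with FAMA, and 1 was lower with FAMA-EAR. Of 19 CYP71B genes, 5 were lower with FAMA.

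None of the 33 named members belongs to 8 lists of guard cell, stomatal lineage, iron, abscisic acid, jasmonate, photosynthesis, nitrogen and sugar genes, of whose 161 listed genes 23 had a named probe set. As only 33 of the 13436 probe sets matched to 1 gene are members, a count of 0 among 23 genes says little about the members. For the iron list the absence was in part set by the rule, which bars BHLH101 by name. The 4 h difference of BHLH101, 0.398, was also above the limit. AT1G47400, on none of the lists, met the other criteria with 2.68 and -0.81 and was left out by name. Unnamed members could not be checked against the lists. Of 4 guard cell genes with a named probe set, FAMA included, 4 were higher with FAMA and 1, FAMA itself, with FAMA-EAR. The FAMA probe set also reads the induced constructs, so its rises were set by the design. Among the guard cell genes, the blue light signalling kinase gene BLUS1 (AT4G14480) came nearest to the rule, with 0.92 with FAMA and -0.48 with FAMA-EAR. Its FAMA-EAR 48 h arrays (143, 116.3 and 111.8) also overlapped the 48 h controls (141.4, 198.5 and 206.2). Of 4 stomatal lineage genes, FAMA again included, 1 was higher and 2 lower with FAMA, and 1 was higher with FAMA-EAR. The gene that was higher was FAMA itself in both cases. Both iron genes matched, PYE and BHLH101, were higher with FAMA, with log2 differences of 0.64 and 2.18, and had -0.27 and -1.68 with FAMA-EAR, a fall called for BHLH101. The 6 photosynthesis genes were all lower with FAMA. Of 4 abscisic acid genes 1 was higher and 1 lower with FAMA and 2 higher with FAMA-EAR, and of 4 sugar genes 1 was higher and 1 lower with FAMA and 1 higher with FAMA-EAR. No gene of the jasmonate and nitrogen lists could be matched to a named probe set, and 8730 probe sets have no name here.

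The limits of the set lie on a continuous scale. Just inside the threshold of 0.5, 249942_at had a smaller effect of 0.503 and CYP71B22 of 0.507, and just outside AT5G54860 had 0.497 and AT3G19970 had 0.492, all other criteria being met. On the 4 h limit of 0.38, the nearest members had absolute differences of 0.366 (267168_at) and 0.365 (265478_at), and 266967_at with 0.385 and AT5G58390 with 0.387 were outside. The rule found 39 probe sets with an offset of 100 in place of 20, of which 36 are among the 80, and 68 to 100 when 1 array was left out. In 25 of the 54 members higher with FAMA and 10 of the 26 lower the lowest group mean was under 100, where MAS5 signals vary most.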

How the data were processed

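Per the submitters' processing notes the authors used MAS5; the deposited table holds its signal intensity, untransformed, for 15 arrays. The MAS5 version and scaling target are not stated in the labels. The mean after removal of the lowest and highest 2% was 500.04 to 500.048 on every array, which is what scaling of the arrays to a common level gives, and MAS5 subtracts mismatch probes, which makes low signals uncertain. The 64 AFFX control probe sets were used for the 3' to 5' ratios alone.

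Arrays were grouped by title. Signals were taken as log2(signal + 20), and the selection rule was applied to group means. Tests used limma 3.58.1 in R 4.3.3, in 1 fit of all 15 arrays with 5 group means, 10 residual degrees of freedom and a variance trend, two-sided, with Benjamini-Hochberg adjustment over 22746 probe sets and a threshold of 0.05. The labels do not say whether replicates were separate cultures, so p-values measure the spread between these arrays, which may be technical. The number of arrays limits the precision: an exact test of 3 arrays against 3 cannot go below p = 0.1. The members, lists and tests were chosen with earlier results of these data known. Array values are given for the 10 members of each direction with the largest smaller effect and for members changed at least 2-fold in uninduced seedlings; members given beyond these were chosen after their values were seen. Each list or family gene is read from its brightest probe set.

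Genes came from the platform's probe table matched to TAIR10.1 (13436 of 13513 probe sets with 1 gene; 503 had several and 8730 none). Same-numbered arrays did not deviate together (correlations of -0.06 to 0.04), so the fit has no replicate block. Alternatives were other normalizations, offsets, filters, variance models, a replicate block and single arrays left out. Planned promoter motifs were not analysed here. Figures used matplotlib 3.10.9.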

Additional observations from a re-analysis of the deposited data

Results flagged for a closer look

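The log2 ratio of 3' over 5' control probe sets, taken over actin and GAPDH, averaged 0.607 over the 3 FAMA-EAR 48 h arrays, above every control array at either time. The value comes from control probe sets that are not among the 22746 probe sets tested. All 26 members that were higher with FAMA-EAR and all 54 that were lower are read from the same 3 arrays, and the part of the ratio in their values was not tested.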

How the results depend on the processing

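All 54 members higher with FAMA and all 26 lower kept opposite signs under equal array medians and quantile normalization, as a description of arrays that the rule used. They also did with offsets of 1 and 100 and with any 1 array left out, but this was fixed in advance. The rule kept the arrays of each construct apart from the 48 h controls, and these changes cannot undo that. The number that met the rule was 39 with an offset of 100, and 68 to 100 with 1 array left out, of which 64 to 79 were among the 80. After quantile normalization it was 64, with 57 of them among the 80, and with equal array medians 76, with 64 among the 80. Leaving out a 48 h array also eases the separation of arrays that the rule asks for. The medians of the 54 with FAMA and FAMA-EAR were 0.70 and -0.48 with an offset of 100, 1.01 and -0.91 with an offset of 1, and 0.85 to 0.97 and -0.78 to -0.72 with 1 array left out. In uninduced seedlings, 767 probe sets were higher; the count was 476 with equal array medians, 409 with no variance trend, 1151 without the third FAMA 4 h array (chosen after seeing the data) and 460 to 577 with 1 control array left out. Lower were 866, and 532 with no variance trend. The 2 lower calls among the 26 became 1 after quantile normalization, 0 with equal array medians or no variance trend, and 0 to 2 with 1 array left out. FAMA-EAR calls, 729 in all, were 463 with equal array medians, 322 with no variance trend and 358 to 519 with 1 array left out. With the replicate number as a block, 19 of the 54 members were lower in uninduced seedlings, against 18 without it. Of 24 members called in uninduced seedlings, 16 kept their call in every alternative, and 0 changed sign. The causes of these shifts were not tested.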
